A study of Mus musculus with 13 samples.

Results

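The glutathione transferases described here are 10 genes of the mouse colon epithelium: Gsta1, Gsta4, Gstp1, Gstp2, Gstm1, Gstm3, Gstk1, Mgst1, Mgst2 and Mgst3. They were taken by name from the 32285 rows of the expression table, and all 10 were found. The series is a droplet 3' single-cell RNA study of colon epithelium, with cells sorted as EPCAM-positive and CD45-negative and with CD44-positive (proliferative) and CD44-negative (differentiated) cells mixed in equal parts. The germ-free pool came from germ-free C57BL/6J mice, which carry no microbes. The antibiotic pool came from wild type C57BL/6J mice whose treatment is labelled Antibiotic, with no agent, dose or duration named. Age and sex are not given. Mice of one condition were combined ahead of the sort, and the labels put all germ-free libraries in one batch and all antibiotic libraries in the other. Each condition is therefore 1 sample, condition and batch cannot be told apart, no p-value is given, and all intervals cover counting error only. Control mice were not analysed here.

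Glutathione transferases join the tripeptide glutathione to electrophilic compounds, which makes them more soluble and ready for export from the cell. The alpha (Gsta), pi (Gstp) and mu (Gstm) classes are soluble enzymes of the cytosol, the kappa enzyme Gstk1 is found in mitochondria and peroxisomes, and the microsomal enzymes Mgst1, Mgst2 and Mgst3 are small membrane proteins of a separate family that also reduces lipid peroxides or takes part in leukotriene synthesis. In the gut these enzymes meet dietary and microbial electrophiles, and several of their genes are known targets of the stress-response factor Nrf2, which binds the antioxidant response element. The factor AP-1 binds a related core sequence.

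Several of these genes have near copies, and a 3' assay reads the end of the transcript. In the last 500 bases of the longest coding transcript, 83.4% of the 31-base words of Gstp1 were also found in Gstp2, and 96.6% of those of Gstp2 were found in another gene (Gstp1 or the pseudogene Gstp-ps). Of the Gsta1 words, 94.5% occurred elsewhere, and 93.2% in Gm3776, a neighbouring alpha-class gene. The shares were 8.30% for Gstm1 and 7.23% for Gstm3, 0.638% for Gstk1, and 0 for Gsta4, Mgst1, Mgst2 and Mgst3. Values of Gstp1, Gstp2 and Gsta1 are thus uncertain as values of single genes, and Gstp1 and Gstp2 are also given as a sum. The Gsta1 copies were low in the table: Gm3776 stood at 5.16 CPM (UMI, unique molecules, scaled to the same total in each pool or group of cells) in germ-free and 2.14 CPM in antibiotic cells.

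Gstp1 and Gstp2 are adjacent on chromosome 19 of the mouse (mm10, minus strand, GENCODE vM21), Gstp1 at 4035407 to 4037985 and Gstp2 at 4040285 to 4046023, with 2300 bases between them. Gsta4 and Gsta1 are both on chromosome 9 and Gstm3 and Gstm1 both on chromosome 3, while Gstk1 and Mgst1 are on chromosome 6, Mgst2 on chromosome 3 and Mgst3 on chromosome 1. The promoters of Gstp1, Gstp2 and Mgst1 are printed because these 3 genes differed most between the conditions. They are RefSeq sequences of build GRCm38.p6, from 250 bases before to 50 bases after the transcription start, 5′ to 3′ on the strand of the gene. The RefSeq start used for Gstp2 is not the outer end of the GENCODE gene at 4046023. Its printed promoter lies wholly inside the Gstp2 span given above.
Gstp1, chr19:4037863-4038162, minus strand: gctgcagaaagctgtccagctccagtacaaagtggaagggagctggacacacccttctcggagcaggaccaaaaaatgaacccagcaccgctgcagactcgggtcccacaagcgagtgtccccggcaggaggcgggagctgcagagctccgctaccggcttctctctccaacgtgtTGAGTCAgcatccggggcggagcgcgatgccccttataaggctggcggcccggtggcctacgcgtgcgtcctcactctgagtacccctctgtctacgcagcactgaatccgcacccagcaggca
Gstp2, chr19:4042172-4042471, minus strand: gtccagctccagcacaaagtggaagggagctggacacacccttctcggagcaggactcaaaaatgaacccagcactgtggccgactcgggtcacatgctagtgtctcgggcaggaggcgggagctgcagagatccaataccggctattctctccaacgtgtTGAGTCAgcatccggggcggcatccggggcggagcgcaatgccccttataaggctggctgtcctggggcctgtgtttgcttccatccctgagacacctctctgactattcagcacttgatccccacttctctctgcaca
Mgst1, chr6:138140277-138140576, plus strand: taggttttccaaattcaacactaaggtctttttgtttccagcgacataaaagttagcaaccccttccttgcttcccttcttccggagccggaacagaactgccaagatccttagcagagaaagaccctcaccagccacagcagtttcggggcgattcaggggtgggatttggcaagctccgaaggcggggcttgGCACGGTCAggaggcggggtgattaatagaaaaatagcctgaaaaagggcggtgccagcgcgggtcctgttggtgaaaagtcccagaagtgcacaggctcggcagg
Capitals mark an AP-1 site (TGACTCA or its reverse complement TGAGTCA) in the Gstp promoters and the core of the antioxidant response element (TGACNNNGC, here on the opposite strand) in the Mgst1 promoter. The AP-1 letters lay at -74 to -68 in Gstp1 and -89 to -83 in Gstp2, and the element core at -56 to -48 in the printed Mgst1 promoter. Mgst1 has another promoter entry, at chr6:138141337-138141636, which is not printed and held neither the AP-1 letters nor the element core. An aligned comparison found 76.4% identical columns between the pair of Gstp promoters. Of the 9 members with a promoter entry, 3 held the AP-1 letters on either strand (the third was Mgst2) against 5.20% of 32851 promoters, and 1 held the element core, against 12.4%. Members were counted by gene, with more than 1 entry for Gstm1 and Mgst1, whereas the background was counted by promoter. Only the TGACNNNGC form of the element core was searched. In both Gstp promoters the AP-1 letters are followed by GC. The resulting TGAGTCAGC differs from the searched form only in the letter after TGA, and was not counted as an element core. All of these are matches of letters and not measured binding sites.

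The germ-free pool held 768 cells and 3100880 UMI, and the antibiotic pool 3415 cells and 36530277 UMI. The numbers at the end of the cell names split the pools into germ-free cell sets 3 and 4 and antibiotic cell sets 1, 2 and 3, which could not be matched to the libraries. Median depth was 1045 and 4682 UMI per cell in germ-free sets 3 and 4, against 6599 to 7420 in the antibiotic sets. In germ-free set 3, 1 UMI equals 2.48 CPM. Within the antibiotic pool 810 cell barcodes occurred in more than 1 cell set, which made 837 cells (24.5% of the cells, 3.40% of the UMI) shallower copies of a barcode already present. Over 3000 genes, the median correlation between cells with the same barcode was 0.52, against 0.28 between other pairs of cells. No barcode was shared in the germ-free pool. All deposited cells were kept, and with each antibiotic barcode counted once the largest shift of a member's log2 ratio was 0.03. Mitochondrial genes took 18.7% of germ-free and 12.4% of antibiotic UMI, and 8 dissociation-response genes 2128 and 2953 CPM. Summed markers of immune cells (6 genes) were at 5.48 and 5.75 CPM and of stroma and endothelium (5 genes) at 3.22 and 3.61 CPM, with 4 and 3 of these genes at 0 in germ-free cells, while epithelial markers were at 5273 and 4943 CPM.

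Between the pools, the pi-class pair was much lower in germ-free cells, microsomal Mgst1 was higher, and the most abundant member, Mgst3, was moderately lower. Together the 10 genes took 1067 CPM in germ-free and 1469 CPM in antibiotic cells, of which Mgst3 alone gave 56.5% and 61.1%. Genes with 100 or more UMI over both pools and a level of 20 CPM or more in either pool were ranked, which kept 9 of the 10 members (all but Gstm3). At least 2-fold higher in germ-free cells was 1 of the 9 (Mgst1), against 1.78% of all 6462 ranked genes, and at least 2-fold lower were 2 (Gstp1 and Gstp2), against 1.83%. Gstp1 and Gstp2 passed the 20 CPM limit in the antibiotic pool alone. With no filter on low values the same 2 were lower, against 1.86% of 21084 genes. Both germ-free sets lay above all antibiotic sets for 2 members (29.4% of all ranked genes) and below them for 4 (24.5%). The median log2 ratio of CPM + 1, germ-free over antibiotic, was -0.57 over the 9 members and 0.05 over all ranked genes.

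**Figure D1:**
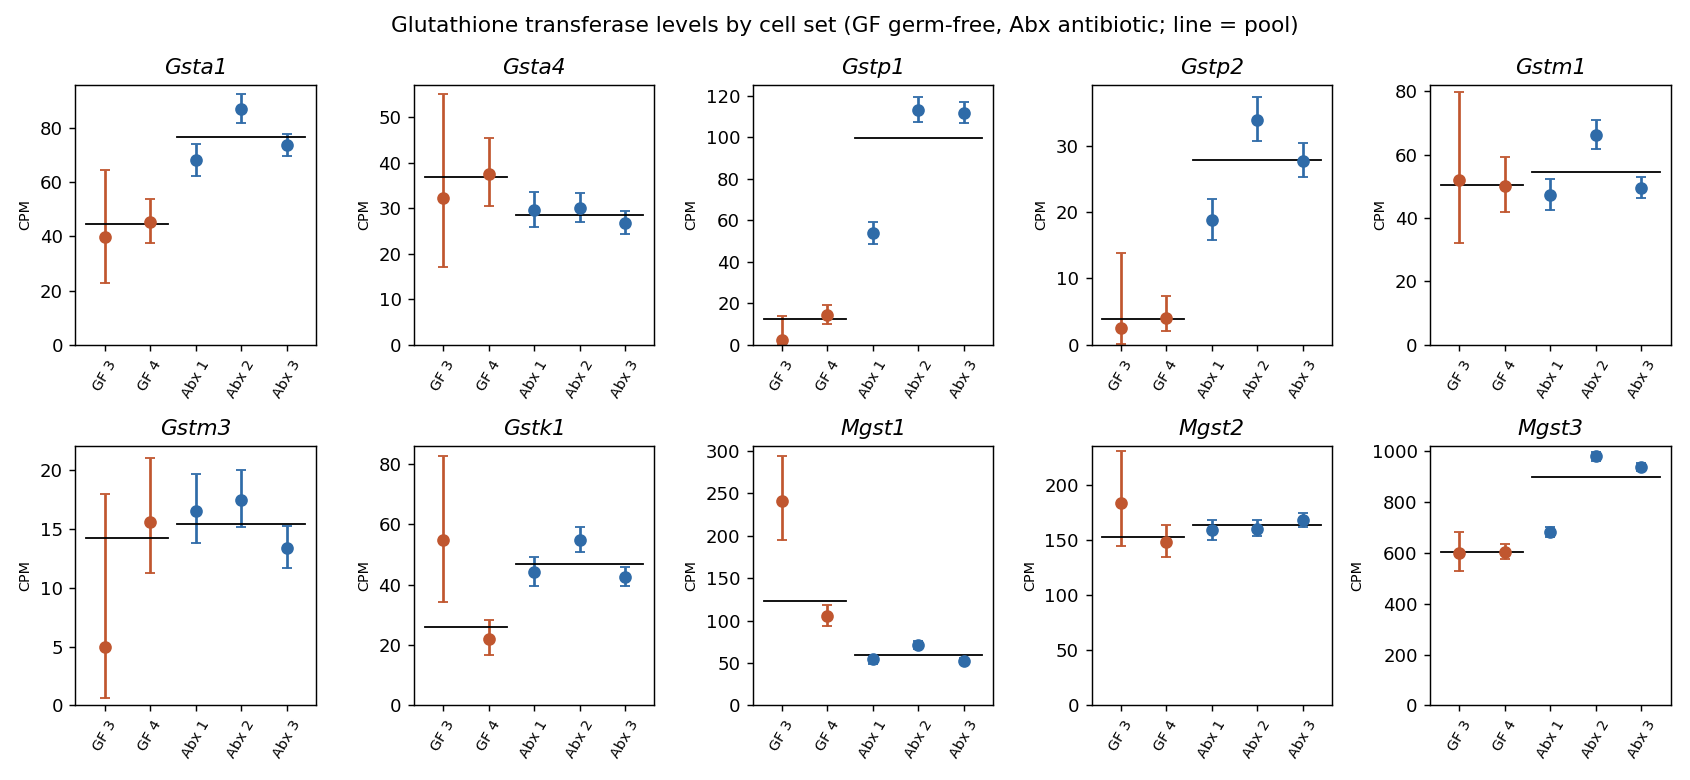
Level of each of the 10 genes in CPM (linear axis from 0) in germ-free cell sets 3 and 4 and antibiotic cell sets 1, 2 and 3. Points are summed UMI of a set with exact Poisson 95% intervals, and black lines are the pools. Gstp1 was at 2.48 and 14.1 CPM in the germ-free sets, below the lowest antibiotic set at 53.7 CPM, while Mgst1 was above all antibiotic sets in both.

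Gstp1, a pi-class enzyme known for a broad range of electrophile substrates, was at 2.48 and 14.1 CPM in germ-free sets 3 and 4, against 53.7, 113 and 112 CPM in antibiotic sets 1, 2 and 3. The sets did not overlap, although antibiotic set 1 stood well below the other two. Pooled, Gstp1 was at 12.6 CPM (39 UMI) in germ-free and 99.7 CPM (3643 UMI) in antibiotic cells, 7.93-fold lower in germ-free cells (95% interval 5.79 to 11.2) with a log2 ratio of -2.89. Its neighbour Gstp2 was at 2.48 and 4.08 CPM in the germ-free sets, against 18.7, 33.8 and 27.7 CPM in the antibiotic sets. That is 12 and 1015 UMI, 7.18-fold lower in germ-free cells (4.09 to 13.9, log2 ratio -2.56). The germ-free value of 1 UMI of each gene in set 3 carries little weight. Gstp1 had 3.25 UMI for each Gstp2 UMI in germ-free cells (1.67 to 6.82) and 3.59 in antibiotic cells (3.35 to 3.85), with overlapping intervals. Within the antibiotic pool this ratio was 2.87 in set 1 (2.37 to 3.49) and 4.04 in set 3 (3.64 to 4.48). With few germ-free UMI and shared sequence, it cannot show whether the balance of the pair was the same in both pools.

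Cells from female and male mice were mixed in different proportions: Xist was at 659 CPM in germ-free and 209 CPM in antibiotic cells, and 4 Y-linked genes summed to 132 and 212 CPM. Gstp1 was therefore read separately in cells with Xist and no Y-linked UMI and in cells with the reverse. Among cells with Xist, Gstp1 was at 11.4 CPM in 356 germ-free cells (6.66 to 18.3) and at 83.5 CPM in 554 antibiotic cells (76.7 to 90.8). Among cells with Y-linked UMI it was at 10.5 CPM in 175 germ-free cells (5.02 to 19.2) and at 100.2 CPM in 1620 antibiotic cells (96.0 to 104). Gstp1 was lower in germ-free cells in both splits, with intervals that did not overlap. Mgst1 likewise was at 116 and 58.2 CPM in germ-free and antibiotic cells with Xist, and at 126 and 58.4 CPM in those with Y-linked UMI. Gsta1 differed along this split within the antibiotic pool, at 114 CPM with Xist (106 to 122) and 67.4 CPM with Y-linked UMI (64.0 to 70.9), while in the germ-free pool it was at 44.4 and 38.7 CPM.

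Mgst1, a microsomal transferase of the endoplasmic reticulum and outer mitochondrial membrane, was at 241 and 106 CPM in germ-free sets 3 and 4, against 54.4, 71.0 and 52.7 CPM in the antibiotic sets. Both germ-free sets were higher than all antibiotic sets, and the shallow set 3 was the highest by far. Pooled, it was at 123 and 59.1 CPM, 2.08-fold higher in germ-free cells (1.86 to 2.32, log2 ratio 1.05). The pooled ratio sits at the 2-fold limit: without germ-free set 3 the log2 ratio was 0.83. Mgst3, a microsomal enzyme known for peroxidase activity, was at 600.5 and 603 CPM in the germ-free sets, against 682, 980 and 938 CPM in the antibiotic sets. The sets did not overlap, but the pooled difference was 1.49-fold (1.42 to 1.56). Mgst2, a relative with leukotriene-forming activity, was at 153 and 163 CPM in the pools with overlapping sets, and its ratio interval of 0.850 to 1.03 held 1.

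Gsta1, an alpha-class enzyme, was at 39.7 and 45.2 CPM in germ-free sets 3 and 4, against 68.1, 87.1 and 73.7 CPM in the antibiotic sets. It was 1.73-fold lower in germ-free cells (1.46 to 2.07). Gsta4, the alpha-class enzyme known for conjugating the lipid peroxidation product hydroxynonenal, was at 32.3 and 37.4 CPM in the germ-free sets and at 29.5, 30.0 and 26.8 CPM in the antibiotic sets, a pooled ratio of 1.29 (1.06 to 1.57). The sets of Gsta1 and Gsta4 were apart in opposite directions. Gstk1 was at 54.6 and 21.9 CPM in germ-free sets 3 and 4, against 44.2, 54.8 and 42.4 CPM in the antibiotic sets. Its germ-free sets thus lay on either side of most antibiotic values, although the pooled level of 26.1 CPM in germ-free cells was 1.80-fold below the 46.9 CPM in antibiotic cells. The mu-class genes Gstm1 (50.3 and 54.5 CPM) and Gstm3 (14.2 and 15.4 CPM) had overlapping sets and ratio intervals that held 1.

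To place the members in the epithelium, each cell was given to the class of its highest mean marker z-score, if this was above 0.25. Such a gate is a range of scores and not a cell type. In all 3039 cells (72.7%) were gated. Germ-free and antibiotic cells numbered 98 and 133 in the goblet gate (Muc2, Tff3, Zg16 and others), 55 and 247 in the deep crypt secretory gate (Reg4, Kit), 67 and 291 in the stem and crypt base gate (Lgr5, Ascl2), 77 and 275 in the cycling gate (Mki67, Pcna), 60 and 470 in the proximal colonocyte gate (Cyp2c55, Defb37), 127 and 384 in the distal colonocyte gate (Slc37a2, Atp12a) and 130 and 625 in the surface colonocyte gate (Aqp8, Car4). Of all cells, 673 lay near the limit, and 235 passed both a secretory and a colonocyte gate. No doublet caller was run. Muc2 was at 7501 and 5016 CPM in the goblet gate, and at 25.1 to 166 CPM in germ-free and 21.9 to 92.0 CPM in antibiotic cells of the stem, cycling and colonocyte gates. Free RNA and mixed cells were not removed.

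**Figure D2:**
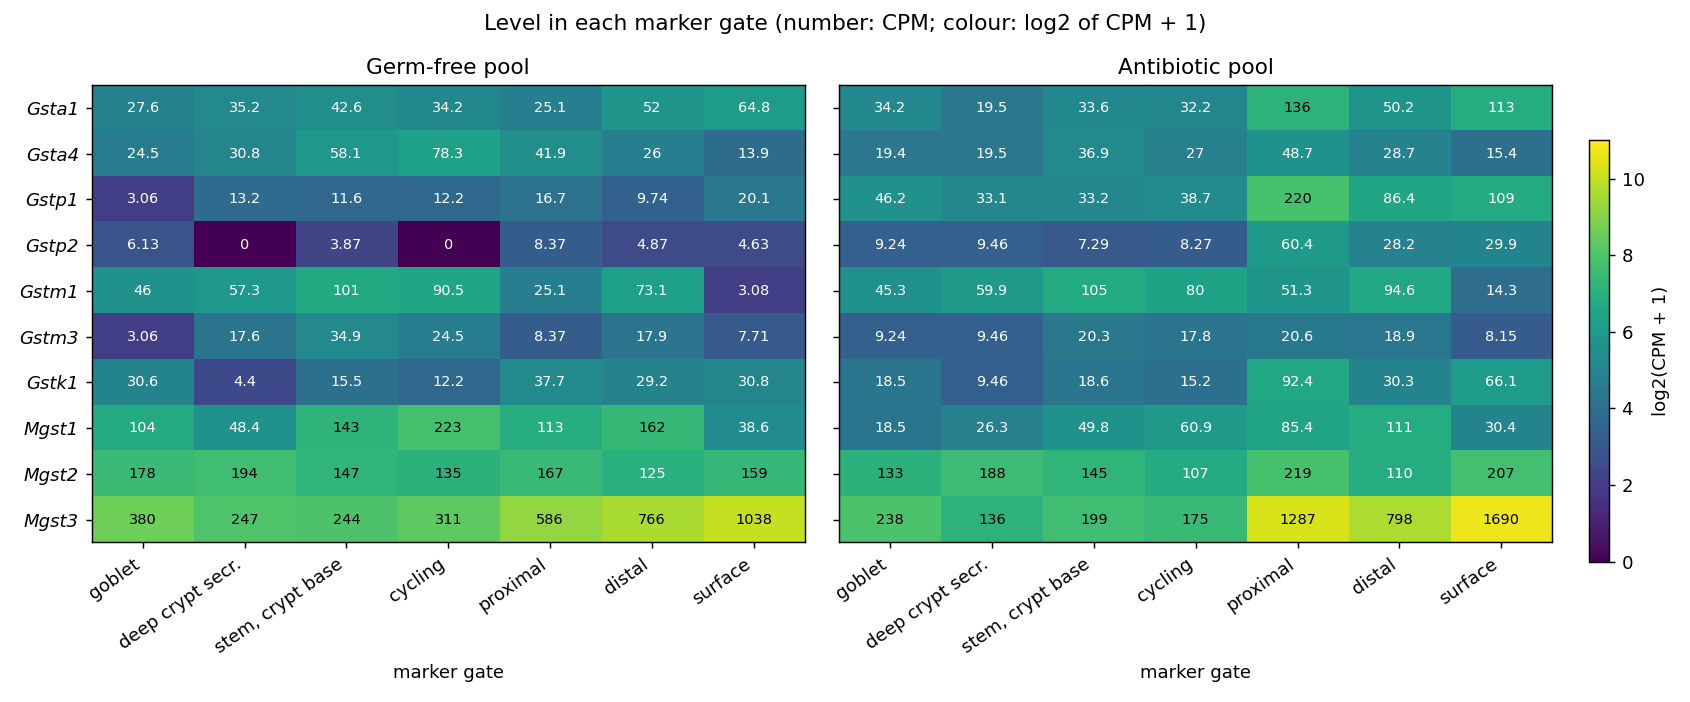
Level of each gene in 7 marker gates, germ-free pool on the left and antibiotic pool on the right. Numbers are CPM of summed UMI and colours the log2 of CPM + 1. In the antibiotic pool Mgst3 reached 1690 CPM in the surface gate and Gstp1 220 CPM in the proximal gate, while Gstm1 was lowest in the surface gate in both pools.

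From crypt base to surface the members went opposite ways. In the antibiotic pool, 5 of the 10 were at least 2-fold higher in the surface than in the stem and crypt base gate (13.4% of 6973 ranked genes) and 3 were at least 2-fold lower (30.7%). Mgst3 was at 1690 CPM in the surface and 199 CPM in the stem gate, 8.50-fold higher (7.77 to 9.32), while Gsta1 was at 113 and 33.6 CPM, Gstp1 at 109 and 33.2 CPM, Gstp2 at 29.9 and 7.29 CPM and Gstk1 at 66.1 and 18.6 CPM. Gstm1 was at 14.3 CPM in the surface and 105 CPM in the stem gate, 7.30-fold lower, and Gstm3 was at 8.15 and 20.3 CPM. Gsta4, at 15.4 and 36.9 CPM, turned direction when clusters took the place of gates (18.3 and 14.7 CPM). Aqp8, a surface marker, was at 74.5 CPM in the surface and 0.810 CPM in the stem gate, and the stem marker Lgr5 at 1.21 and 95.2 CPM, levels that the gating itself fixes. In the germ-free pool Mgst3 was at 1038 and 244 CPM and Gstm1 at 3.08 CPM (2 UMI) and 101 CPM in the same gates.

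Along a finer scale of surface minus crypt markers, with 3650 non-secretory cells in 5 equal bins, Mgst3 in germ-free cells went up from 271 CPM in the bin nearest the crypt to 1076 CPM in the bin nearest the surface. In antibiotic cells it went up from 209 to 1892 CPM. The Mgst3 levels of the pools were furthest apart in the last bin. Gstm1 went down from 106 to 3.94 CPM in germ-free and from 123 to 15.5 CPM in antibiotic cells. Gstp1 was higher at the surface end in both pools: it went from 6.87 CPM (4 UMI) at the crypt end to 21.7 CPM (11 UMI) at the surface end in germ-free cells, with overlapping intervals, and from 47.5 to 163 CPM in antibiotic cells. Mgst1 was lowest in the last bin in both pools. Germ-free cells had 194, 140, 187, 103 and 47.3 CPM from the crypt to the surface end, and antibiotic cells 62.7, 69.5, 79.6, 77.6 and 38.3 CPM, so that the antibiotic level went up before the last bin.

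**Figure D3:**
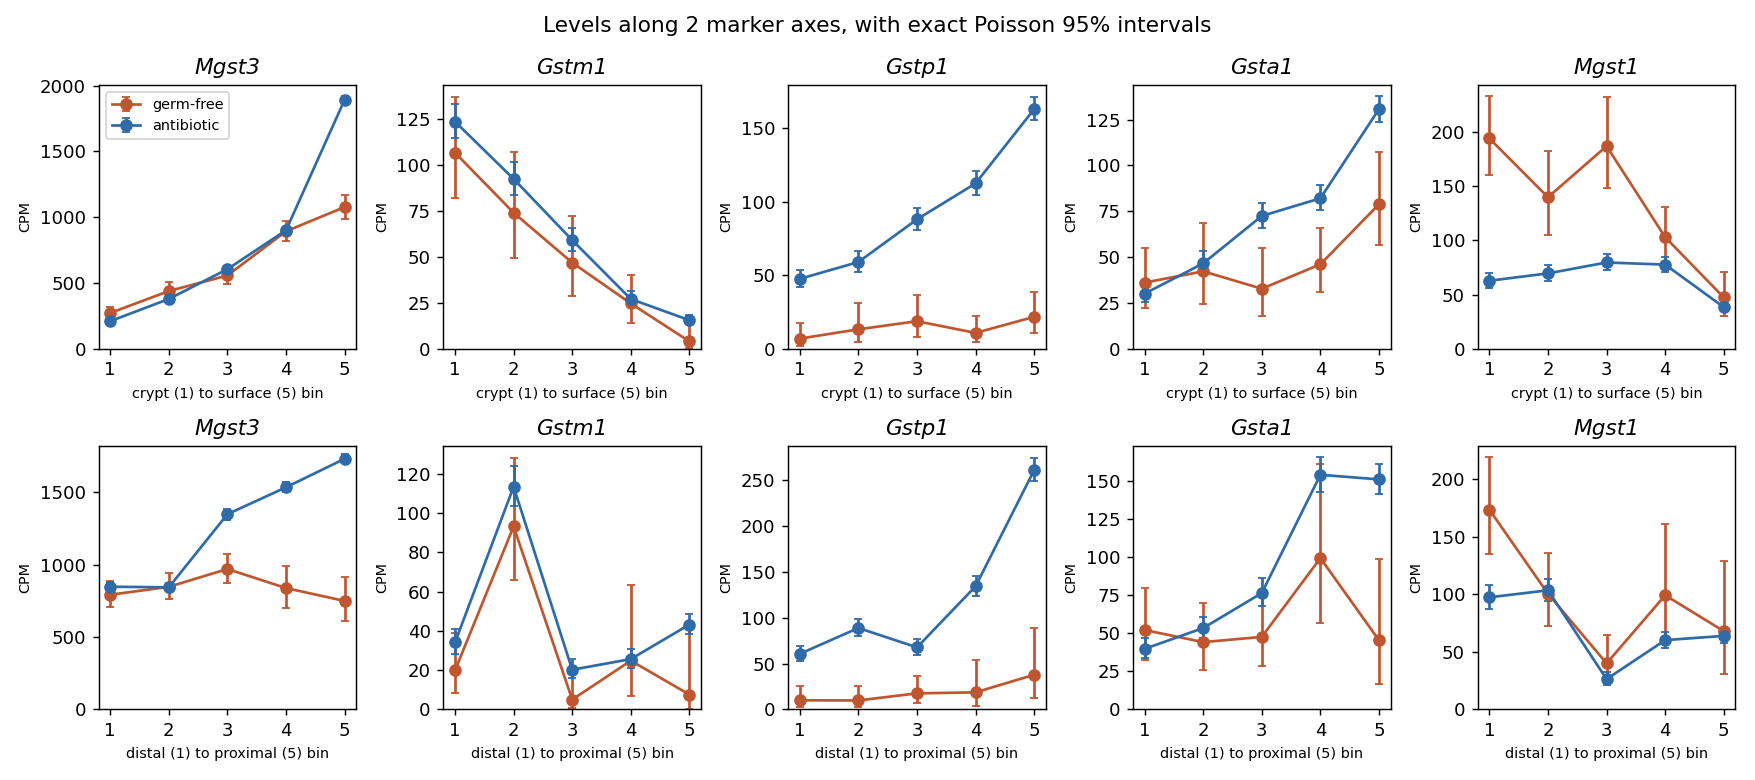
CPM of Mgst3, Gstm1, Gstp1, Gsta1 and Mgst1 (linear axes from 0) along bins of a crypt-to-surface marker score (top) and of a distal-to-proximal marker score in colonocyte gates (bottom), with exact Poisson 95% intervals. Gstp1 was highest in the last bin of both scales in both pools, at 21.7 and 37.8 CPM in germ-free cells (with wide intervals) and at 163 and 261 CPM in antibiotic cells.

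Between colonocyte gates of the antibiotic pool, 4 of the 10 members were at least 2-fold higher in proximal than in distal colonocytes (8.25% of 6487 ranked genes) and 0 were at least 2-fold lower (11.1%). Gstk1 was at 92.4 CPM in the proximal and 30.3 CPM in the distal gate, Gsta1 at 136 and 50.2 CPM, Gstp1 at 220 and 86.4 CPM and Gstp2 at 60.4 and 28.2 CPM. All 4 stayed higher in the proximal gate over 7 alternative runs. The lowest log2 ratios were 1.20 for Gstk1, 0.76 for Gsta1, 0.90 for Gstp1 and 0.71 for Gstp2. Only Gstk1 stayed past 2-fold throughout. Gstm1 tended the other way, at 51.3 and 94.6 CPM. In germ-free cells Gsta1 was at 25.1 CPM in the proximal (6 UMI) and 52.0 CPM in the distal gate, a ratio of 0.483 with an interval of 0.165 to 1.17. Gstp1 was at 16.7 (4 UMI) and 9.74 CPM (6 UMI), a ratio of 1.72 in the same direction as in antibiotic cells, with an interval of 0.357 to 7.25. Ordered from distal to proximal in 5 bins of 1796 colonocyte-gated cells, germ-free Gstk1 lay between 24.8 and 35.1 CPM, on 4 to 14 UMI a bin, while in antibiotic cells it climbed from 19.2 to 106 CPM. Mgst1 was highest in the most distal germ-free bin, at 174 CPM, against 97.5 CPM in the matching antibiotic bin.

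Secretory gates held less of several colonocyte enzymes. In the antibiotic pool 8 members were ranked between the goblet and surface gates: 1 was at least 2-fold higher in goblet cells (Gstm1, 45.3 and 14.3 CPM, background 18.6%) and 5 were at least 2-fold lower (background 13%). Mgst3 was at 238 CPM in the goblet and 1690 CPM in the surface gate, 7.09-fold lower, and Gstk1 was at 18.5 and 66.1 CPM. Mgst3, Gstk1 and Gsta1 stayed past 2-fold over 7 alternative runs, but log2 ratios reached -0.59 for Gstp1 and -0.48 for Gstp2. The antibiotic goblet gate was 30.8% cluster 11 and 12.8% cluster 3, a surface cluster. In the 38 antibiotic cells of cluster 15, a goblet-rich cluster, Gstp1 was at 82.6 CPM and Gstp2 at 23.0 CPM. Deep crypt secretory cells of the antibiotic pool had the lowest Mgst3 of the 7 gates, at 136 CPM, but kept Mgst2 at 188 CPM. Mgst2 was the most even member, with 125 to 194 CPM over the germ-free and 107 to 219 CPM over the antibiotic gates.

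Within gates, the pi-class pair was lower and Mgst1 higher in germ-free cells, while Mgst3 went different ways. These gates were made up of different clusters in the 2 conditions: the germ-free proximal gate was 65% cluster 7, a cluster of 262 cells found in that pool alone, while the antibiotic proximal gate was 35.5% cluster 9 and 25.5% cluster 1. Cluster 7 also gave 47.8% of the germ-free stem, 40.8% of the surface and 37.7% of the cycling gate. Gstp1 and Gstp2 summed were lower in germ-free cells in 7 of 7 gates, and 6 of the 7 ratio intervals lay below 1. The sum was at 25.1 CPM (6 UMI) in germ-free and 280.2 CPM in antibiotic cells of the proximal gate, 11.2-fold lower (5.12 to 30.4). It was at 24.7 and 139 CPM in the surface gate and at 15.5 and 40.5 CPM in the stem gate, where the interval of the ratio, 0.102 to 1.01, held 1. The pooled level of Mgst1 was higher in germ-free cells in 7 of 7 gates, with 4 intervals above 1. In the proximal gate this rested on the shallow set 3: Mgst1 was at 380.1 and 64.3 CPM in germ-free sets 3 and 4, against 96.5, 80.2 and 83.8 CPM in the antibiotic sets, so that without set 3 the direction turned. It was at 104 CPM in germ-free and 18.5 CPM in antibiotic cells of the goblet gate, 5.64-fold higher (3.16 to 10.3), at 223 and 60.9 CPM in the cycling gate and at 143 and 49.8 CPM in the stem gate. In the surface gate it was at 38.6 and 30.4 CPM, with an interval of 0.807 to 1.91.

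**Figure D4:**
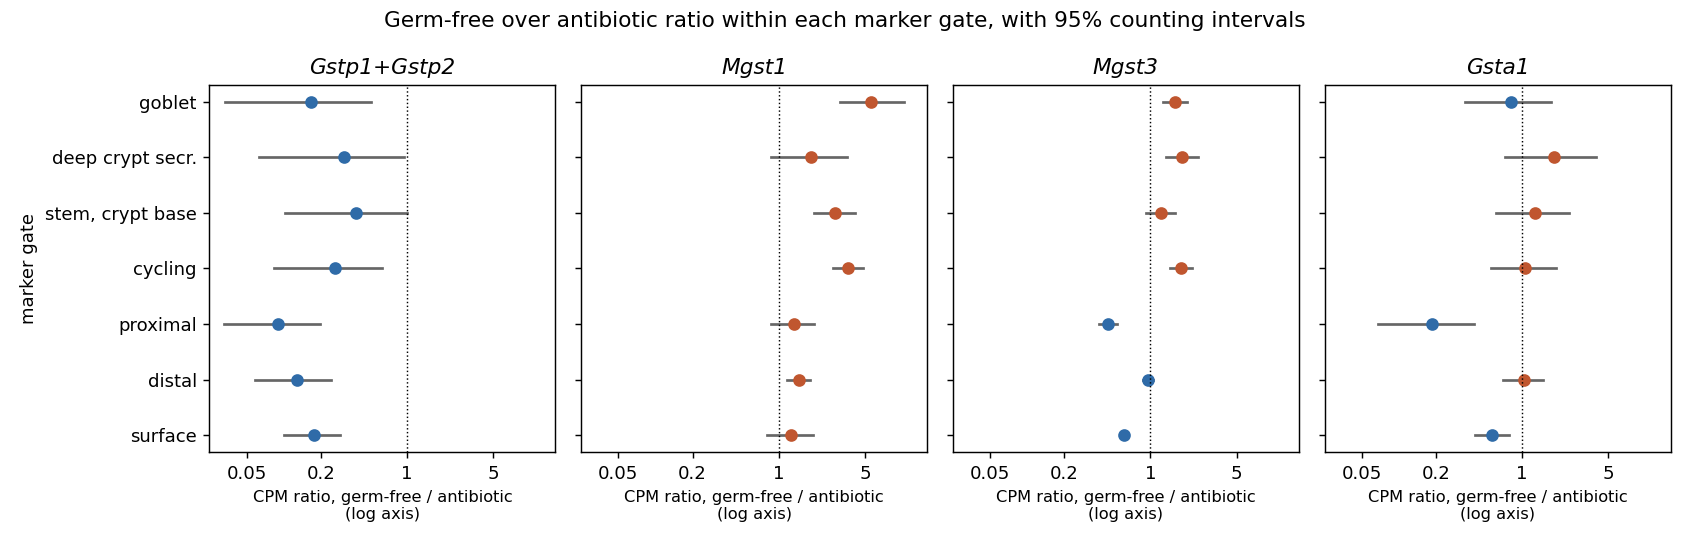
Ratio of CPM, germ-free over antibiotic (log axis), within each marker gate for Gstp1 and Gstp2 summed, Mgst1, Mgst3 and Gsta1, with conditional exact binomial 95% intervals and a dotted line at 1. The pooled ratio lay below 1 in all 7 gates for the Gstp sum and above 1 in all 7 for Mgst1, which in the proximal gate rested on germ-free set 3 (380.1 CPM, against 64.3 CPM in set 4), whereas Mgst3 was above 1 in the goblet, secretory, stem and cycling gates and below 1 in the colonocyte gates.

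Mgst3 was lower in germ-free cells of the proximal gate (586 and 1287 CPM, 2.20-fold, 1.86 to 2.61) and the surface gate (1038 and 1690 CPM, 1.63-fold). The surface sets overlapped, at 1315 and 1013 CPM in germ-free sets 3 and 4 and 1256 CPM in antibiotic set 1. Mgst3 was higher in germ-free cells of the goblet gate (380.0 and 238 CPM, ratio 1.59, 1.28 to 1.98), the deep crypt secretory gate (247 and 136 CPM) and the cycling gate (311 and 175 CPM). In the cycling gate the germ-free sets were at 416 and 301 CPM, against 127, 156 and 225 CPM in the antibiotic sets, without overlap. In the proximal gate they were at 896 and 530 CPM, against 1124, 1514 and 1191 CPM, again without overlap. The level of Muc2 in the cycling gate, 166 CPM in germ-free and 40.5 CPM in antibiotic cells, moved with the first of these, and its part in the result was not tested. In the proximal gate, 7 of 10 ranked members had germ-free levels 2-fold or more below antibiotic ones, against 8.47% of all ranked genes there, and 0 were as much higher, against 4.81%. The 7 were Gsta1, Gstp1, Gstp2, Gstk1, Mgst3, Gstm1 and Gstm3, though Gstm1 (25.1 and 51.3 CPM) and Gstm3 (8.37 and 20.6 CPM) rested on 6 and 2 germ-free UMI and had intervals that held 1. Gstp1, Gstp2 and Gstm3 passed the 20 CPM limit in antibiotic cells alone, a limit that the share of all ranked genes has too. The gate held 238886 germ-free and 7269879 antibiotic UMI, so ranking rested mostly on antibiotic cells. The gate marker Cyp2c55 itself was at 1118 CPM in germ-free and 4146 CPM in antibiotic cells of this gate, and its part in the count was not tested. The count was 2 (Gstp1 and Gstp2) with proximal clusters in place of the gate, and 4 without germ-free set 4. In the surface gate 3 of 7 ranked members were at least 2-fold lower (Gstp1, Gstp2 and Gstk1, background 3.55%) and 0 higher (2.93%). In the cycling gate 1 of 4 was at least 2-fold higher (Mgst1, background 2.62%) and 0 lower (6.9%). Gsta1 was lower in germ-free cells of the proximal gate (25.1 and 136 CPM) and surface gate (64.8 and 113 CPM) and its interval held 1 in the other 5. Gstk1 was lower in the same gates, at 37.7 and 92.4 CPM in the proximal and 30.8 and 66.1 CPM in the surface gate. In the surface gate its germ-free sets 3 and 4 were at 92.6 and 25.2 CPM, against 54.7 to 71.8 CPM in the antibiotic sets, so that without set 4 the direction turned. Gsta4 was higher in germ-free cells of the cycling gate, at 78.3 and 27.0 CPM (ratio 2.90, 1.83 to 4.52), which rested on set 4: germ-free sets 3 and 4 were at 29.7 and 82.6 CPM, against 23.7 to 34.3 CPM in the antibiotic sets. Median depth differed in each of these gates, for example 3448 and 11631 UMI per cell in germ-free and antibiotic cells of the proximal gate.

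Clusters of cells, built without the 10 genes, gave a finer view. Of 17 clusters, 14 had at least 50 antibiotic cells. Cluster 12, with 49 germ-free and 177 antibiotic cells, was led by the metallothioneins Mt2 and Mt1, the sulfotransferase Sult1a1 and the carboxylesterase Ces1g, and Mgst1 and Gsta4 were themselves among its 10 leading genes. Its antibiotic cells had 127 CPM of Gsta4, 247 CPM of Mgst1, 191 CPM of Gsta1 and 1371 CPM of Mgst3. Its median of 2317 UMI per cell was below that of most clusters. In the same cluster Gstp1 was at 9.76 CPM in germ-free cells (3 UMI, 2.01 to 28.5) and 248 CPM in antibiotic cells (227 to 272), while Gstk1 was at 78.1 and 97.8 CPM and Mgst3 at 1233 and 1371 CPM. Among antibiotic cells Mgst3 was highest in cluster 10, a surface cluster led by Saa1, at 2661 CPM, and lowest in cluster 11, a deep crypt secretory cluster, at 42.7 CPM. Gstp1 was highest in cluster 9, a proximal cluster led by S100g, at 275 CPM, where Gstk1 was at 115 CPM and Mgst2 at 271 CPM.

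Compared cluster by cluster, the pi-class pair had ratio intervals below 1 in clusters where antibiotic cells had high levels. Of the clusters, 9 held at least 20 cells of each condition. Gstp1 and Gstp2 summed were lower in germ-free cells in 9 of the 9, but 3 ratio intervals lay below 1 and 6 held 1, among them 3 clusters with no germ-free UMI of the pair. The sum was at 11.2 CPM (5 UMI) in germ-free and 173 CPM in antibiotic cells of cluster 4, at 16.3 CPM (5 UMI) and 309 CPM in cluster 12, and at 4.52 CPM (1 UMI) and 106 CPM in cluster 15. In cluster 3 it was at 24.8 (3 UMI) and 26.1 CPM and in cluster 5 at 15.5 (4 UMI) and 24.8 CPM, where antibiotic cells were themselves low. The ratio intervals there were 0.191 to 2.89 and 0.164 to 1.70. In cluster 6, with 106 germ-free cells, the sum was at 22.2 (8 UMI) and 24.4 CPM, a ratio of 0.909 (0.369 to 1.96). That interval lay above the pooled ratio intervals of Gstp1 (0.0895 to 0.173) and Gstp2 (0.0717 to 0.244). Gstp1 alone was lower in germ-free cells in 7 of the 9, and not in clusters 3 and 6. Counts this low cannot show whether the pair differed in clusters 3, 5 and 6, but a fall as large as the pooled one was not seen in cluster 6. Clusters 9 and 10, high in Gstp1 among antibiotic cells, held fewer than 20 germ-free cells and were not compared.

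Mgst1 was higher in germ-free cells of 4 of the 9 clusters by its interval, at 255 and 52.9 CPM in cluster 5 (ratio 4.83), 197 and 47.2 CPM in cluster 6, 80.8 and 11.4 CPM in cluster 11 and 49.6 and 8.71 CPM in cluster 3. It was lower in cluster 12, at 127 and 247 CPM, and close in cluster 4, at 148 and 165 CPM. Mgst3 was higher in germ-free cells of cluster 5, at 271 and 111 CPM, and also of 2 colonocyte clusters, at 625 and 451 CPM in cluster 6 and 472 and 352 CPM in cluster 3. It was lower in cluster 4, at 789 and 987 CPM, and in the other 5 clusters the interval held 1, as in cluster 15, the goblet-rich cluster, at 271 and 288 CPM. The lower Mgst3 of germ-free colonocyte gates was thus not seen in every colonocyte cluster. The goblet gate, where Mgst3 was higher in germ-free cells, was 52.0% cluster 15 in germ-free but 30.8% cluster 11 in antibiotic cells.

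The share of UMI from ribosomal protein genes, a rough sign of how much cytoplasmic RNA a cell kept, moved with several of these values. It was 7.41% in germ-free and 5.48% in antibiotic cells, and Malat1, a nuclear RNA, was at 19527 and 27160 CPM. In the 4 clusters where Mgst1 was higher in germ-free cells the share was higher there too: 9.45% and 6.51% in cluster 5, 4.76% and 1.62% in cluster 6, 3.97% and 1.69% in cluster 11 and 2.50% and 0.974% in cluster 3. In clusters 4, 12 and 15 it was lower in germ-free cells, at 13.3% and 16.1%, at 10.1% and 12.9% and at 9.22% and 16.7%. These were the clusters where the ratio interval of the Gstp sum lay below 1. In the other clusters with at least 20 cells of each condition the share was higher in germ-free cells. The same held in every marker gate, for example 5.71% and 5.18% in the proximal and 4.58% and 3.33% in the surface gate. The Gstp sum was lower in germ-free cells of all these gates, so the share and the sum did not move together there. Over the 14 antibiotic clusters, which come from the same libraries, the correlation of this share with the log2 level was 0.88 for Mgst1, 0.84 for Gsta4, 0.63 for Gstp1 and 0.10 for Mgst2. Its part in the differences between conditions was not tested.

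Over the 14 antibiotic cluster sums, which share libraries and differ in depth, the nearest patterns to Mgst3 among 10944 genes were those of S100a10 and Myl12b (Pearson r 0.98 for both, on log2 of CPM + 1). Gstp1 was nearest to Bsg (0.98), the membrane protein basigin, and Dbi (0.96), an acyl-CoA binding protein. Gstk1 was nearest to Bsg and Aamdc (0.96 for both), and Gstm1 to the mitochondrial chaperone Hspd1 (0.94) and the elongation factor subunit Eef1g (0.93). Gsta4 was nearest to Pycard and Akr7a5, Gstm3 to Sult1a1 and Pdha1, Gstp2 to Slc25a39 and Ptpmt1, Gsta1 to Plpp6 and Gm15635, Mgst1 to 1700021F05Rik and Mrps26, and Mgst2 to Tmem189 and Pxmp4, with r between 0.90 and 0.96. Among the members themselves Gstk1 and Gstp1 were most alike (0.96), ahead of the sequence-sharing pair Gstp1 and Gstp2 (0.84). Gstm1 and Mgst3 were unrelated over these clusters (0.04).

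Few genes in the rest of the glutathione system were past 2-fold, and those with lower germ-free sets were mostly in the Nrf2 list. Of 39 genes in 5 lists (glutathione synthesis, reduction and NADPH supply, peroxide removal, conjugate export, and Nrf2 with its targets), 28 were ranked, 0 were at least 2-fold higher in germ-free cells and 1 was at least 2-fold lower, against the background shares given above. The median log2 ratio was -0.13. Both germ-free sets lay below all antibiotic sets for 13 of the 28 (24.5% of all ranked genes) and above them for 1 (29.4%). Of the 13, 7 came from the 8 ranked genes of Nrf2 and its targets. The other lists gave 2 of 4 (synthesis), 1 of 5 (reduction and NADPH), 1 of 7 (peroxide removal) and 2 of 4 (export). Of the genes too low to rank, Ggt1, which splits extracellular glutathione, was at 1.29 CPM (4 UMI) in germ-free and 9.17 CPM in antibiotic cells, 7.11-fold lower (2.75 to 26.2). Oplah, the oxoprolinase of the same cycle, was at 4.19 and 10.3 CPM with sets that did not overlap, and the NADPH-forming malic enzyme Me1 at 5.16 and 13.4 CPM with overlapping sets. Gclc, the catalytic subunit of the rate-limiting enzyme of glutathione synthesis, was at 134 and 153 CPM in germ-free and antibiotic cells, and the regulatory subunit Gclm at 66.1 and 75.7 CPM. Of the genes that keep glutathione reduced, glutathione reductase Gsr was at 79.0 and 75.6 CPM, and the pentose phosphate enzymes Taldo1 at 184 and 265 CPM and Tkt at 132 and 143 CPM. Among peroxide-removing enzymes the peroxiredoxins Prdx6 and Prdx1 were at 605 and 350 CPM in germ-free cells and at 621 and 388 CPM in antibiotic cells, Gpx1 at 195 and 199 CPM and Gpx4, which reduces lipid peroxides, at 127 and 204 CPM. Of the exporters that can carry conjugates, Abcc3 was at 100.3 and 135 CPM and Abcg2 at 110 and 124 CPM.

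**Figure D5:**
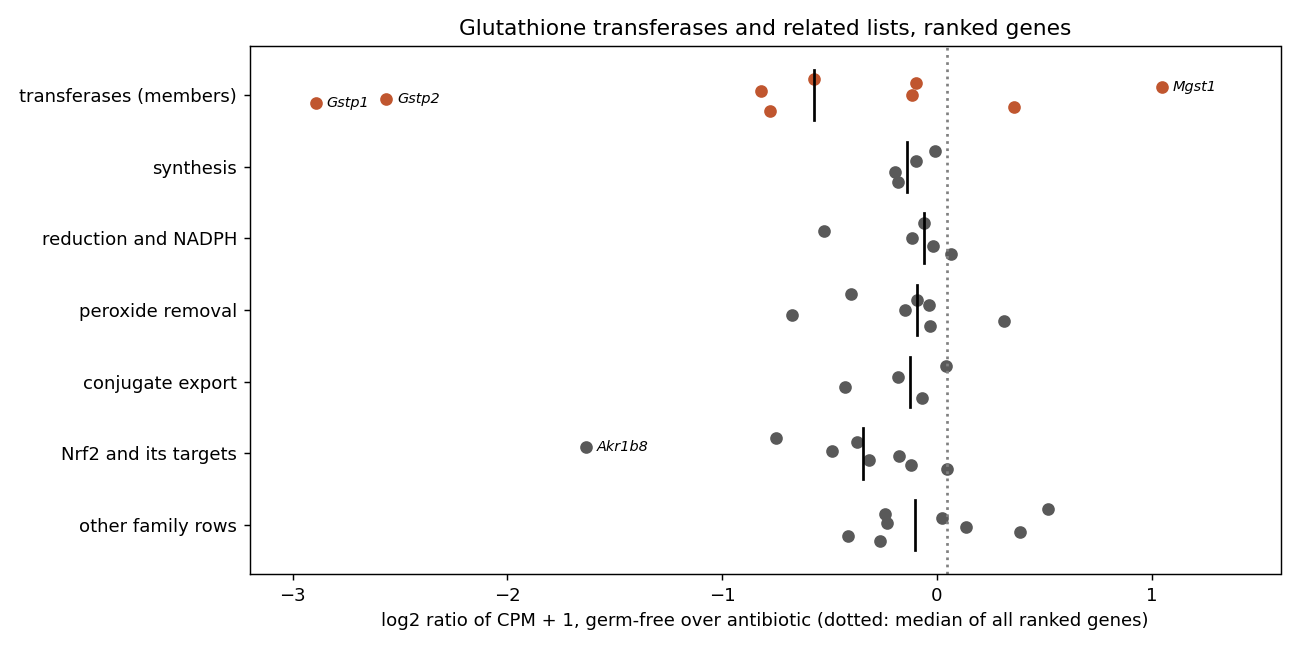
Log2 ratio of CPM + 1, germ-free over antibiotic, of each ranked gene among the transferases (top) and 6 related lists. Bars are list medians, the dotted line is the median of all ranked genes at 0.05, and genes past 2-fold are named. Past 2-fold were Gstp1, Gstp2 and Mgst1 among the transferases and Akr1b8 among the Nrf2 targets.

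In the list of Nrf2 and its targets, 7 of the 8 ranked genes had both germ-free sets below all antibiotic sets (24.5% of all ranked genes), with a list median of -0.34. Akr1b8, an aldo-keto reductase, was at 15.8 CPM in germ-free and 51.1 CPM in antibiotic cells, Ugdh at 324 and 545 CPM, Cbr1 at 181 and 234 CPM and Txnrd1 at 167 and 189 CPM. Nfe2l2, which encodes Nrf2, was at 293 and 284 CPM with overlapping sets. Nqo1, a classical target, was at 21.9 and 27.5 CPM, with a ratio interval of 0.613 to 1.02. The 7 also included the Nrf2 regulator Keap1, at 21.6 and 23.6 CPM (0.704 to 1.18). The intervals of Nqo1 and Keap1 held 1. Of 24 other rows of the transferase family and its relatives, 8 were ranked and none was past 2-fold in either direction. The highest were Gsto1, an omega-class transferase, at 197 and 264 CPM, Eef1g at 196 and 136 CPM, Clic5 at 182 and 216 CPM and Clic1 at 136 and 160 CPM.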

How the data were processed

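The authors deposited a table of natural log expression (32285 genes, 4183 cells). In every cell the exponential minus 1 summed to 10000, and dividing by the cell's smallest nonzero value gave whole UMI counts, within 0.01, for 100% of nonzero values. Cell Ranger 7.0.0, kallisto, bustools and mm10 appear in the submitters' processing notes, which state no roles. For cell filters, annotation and strand use the sources give nothing. Cells were assigned to conditions, and the 8 sample barcode libraries were not used.

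UMI sums of a pool, gate or cluster were scaled to CPM and given exact Poisson intervals, and ratios were given conditional exact binomial ones. All are at the 95% level and cover counting error only. A floor of 3 UMI was set, which is 0.967 CPM in the germ-free and 0.0821 CPM in the antibiotic pool. The exact upper limit at a count of 0 was 1.19 CPM in the germ-free and 0.101 CPM in the antibiotic pool. Log2 ratios use CPM + 1. Endocrine and tuft markers were too rare to gate. Clusters were built from 2000 variable genes, 30 principal components and 15 neighbours (Leiden, resolution 1). The calculation was tested on simulated counts. Python 3.11.15, NumPy 2.4.6, SciPy 1.17.1, pandas 2.3.3, scikit-learn 1.9.0, leidenalg 0.10.2 and matplotlib 3.10.9 were used.

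All 10 members are named, with the 2 genes of the most similar cluster pattern for each and up to 4 of the highest genes of each list. Akr1b8, Nqo1, Keap1, Ggt1, Oplah, Me1, Xist, the Y-linked genes and the markers given beside results were named after their values were seen. The members and gene lists were chosen with earlier results of these data known. Promoter positions are those of RefSeq build GRCm38.p6, and gene positions those of GENCODE vM21, which the authors may not have used.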

Additional observations from a re-analysis of the deposited data

Results flagged for a closer look

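The difference of Mgst3 between the pools went opposite ways in different gates, with every germ-free cell set on one side of every antibiotic set. The log2 ratio, germ-free over antibiotic, was 0.67 in the goblet gate and 0.82 in the cycling gate, but -1.13 in the proximal colonocyte gate. The difference between these gates was not tested, since each condition is 1 pool. The goblet gate held 29 to 65 antibiotic cells per set, and within cluster 15, the goblet-rich cluster, Mgst3 was at 271 CPM in germ-free and 288 CPM in antibiotic cells.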

How the results depend on the processing

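Gstp1, Gstp2, Gsta1, Gsta4, Mgst1 and Mgst3 kept their direction, germ-free over antibiotic, under every alternative run. The log2 ratio ranged from -4.85 to -2.28 for Gstp1, from -3.05 to -1.45 for Gstp2, from 0.80 to 2.01 for Mgst1 and from -0.66 to -0.08 for Mgst3. Gstk1 turned from -0.82 to 0.20 with each cell thinned to 1000 UMI and to 0.22 without germ-free set 4. Members 2-fold or more below antibiotic cells numbered 2 in the germ-free pool, and 1 with the mean of per-cell values or with thinned cells, where the low Gstp2 was no longer ranked. It was 2 to 3 when a cell set was left out. The number at least 2-fold higher was 1, and 0 with median-of-ratios scaling and with cells of at least 1000 UMI and at most 15% mitochondrial UMI. It was 0 to 1 when a cell set was left out, with 0 without germ-free set 3 (log2 ratio of Mgst1 0.83) or antibiotic set 3 (0.92). Of the gate comparisons in antibiotic cells, Gsta4 in the surface over the stem gate turned from -1.21 to 0.29 with clusters in place of gates, and the cause was not tested. Gsta1, Gstp1 and Gstp2 in the proximal over the distal gate fell under 2-fold in at least 1 alternative run. So did Gstp1 and Gstp2 in the goblet over the surface gate. Alternatives that count each barcode once, leave out cells of shared barcodes, leave out cells passing 2 kinds of gate or leave out a cluster of 262 germ-free cells, and the counts within the proximal and surface gates, were chosen after seeing the data. Without cells of shared barcodes, the log2 ratio of Mgst1 was 1.39 and that of Gstm1 0.23. The proximal count of 7 was 2 with clusters in place of gates and 4 to 6 when a cell set was left out, with 4 without germ-free set 4, and the surface count of 3 was 2 to 3. No paired analysis was possible because each condition is 1 pool and the cell set numbers were not matched to libraries. Depth limits the germ-free values: Gstp2 rests on 12 UMI there, and most gates hold under 10 UMI of Gstp1.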
